A study of Rattus norvegicus with 9 samples.

Results

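The steroid dehydrogenases and reductases described here are Hsd3b5, Hsd11b1, Hsd11b2, Hsd17b2, Hsd17b6, Srd5a1 and Dhrs7l1, taken from a list of steroid-metabolising genes and represented by the probe set with the highest mean intensity of each gene. Of these 7 genes, 6 had a row of their own among the 14497 genes measured. Srd5a1, which encodes a steroid 5-alpha-reductase, had no row in the probe annotation used and is not analysed here. The genes were chosen by name with the differences between the 3 groups on these same arrays known, so their levels and differences are given as a description, with intervals and without tests.

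RNA of 9 liver cell preparations from F344 rats, in 3 groups of 3, was hybridised to Affymetrix Rat ST 1.0 arrays, with a single array per preparation. Adult hepatocytes came from collagenase-perfused livers of rats aged 5 to 6 weeks. Fetal cells came from livers at embryonic day 19 that were digested with collagenase and sorted on magnetic beads with antibodies to leucine aminopeptidase and to the ductal antigen OC.2. The labels name 3 fetal preparations negative for OC.2 (OC.2-) and 3 positive (OC.2+), both positive for leucine aminopeptidase. The isolation text describes one double positive sort for both fetal groups, so the division rests on the titles and cell type labels. No treatment is recorded, the sex of the rats is not given, and the labels call the preparations biological replicates.

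Steroid dehydrogenases and reductases add or remove hydrogen at defined carbons of the steroid skeleton and so switch a hormone between active and inactive forms inside the cell. The liver is a main site of this metabolism: it regenerates active glucocorticoid from its inert ketone, and it reduces, oxidises and conjugates androgens, estrogens and corticosteroids before excretion. Several of these enzymes belong to the short-chain dehydrogenase family, and some are made in rat liver in amounts that differ between the sexes.

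The fetal groups were not equally rich in hepatocyte RNA, which may bear on the values below. Marker levels are given as the log2 of the summed linear intensity of a list, in which the brightest genes weigh most. For 10 hepatocyte markers (Alb, Apoa1, Hnf4a and others) this was 16.19 to 16.31 on adult arrays. It was 16.0 to 16.1 on OC.2- arrays and 14.76 to 14.91 on OC.2+ arrays, and OC.2+ cells were lower than OC.2- cells in all 10 by limma. The 9 granulocyte markers summed to 8.96 to 9.12, 9.15 to 9.3 and 14.1 to 14.28 in the same order. Erythroid markers (7 of 9 measured) summed to 9.07 to 9.21 on adult, 14.01 to 14.23 on OC.2- and 14.79 to 14.81 on OC.2+ arrays, and endothelial markers (6 of 8) to 9.49 to 9.84, 11.74 to 12.15 and 9.31 to 9.33. Cholangiocyte markers (6 of 8) summed to 8.59 to 8.72, 8.84 to 9.31 and 8.82 to 8.84, so that OC.2+ arrays were not above OC.2- arrays, although the submitters call OC.2 a ductal marker. Macrophage markers (8 of 8) summed to 9.69 to 9.81, 10.7 to 11.1 and 10.41 to 10.65. Stellate and mesenchymal markers (8 of 8) summed to 10.13 to 10.27, 12.27 to 12.48 and 11.84 to 12.12. The brightest of them on OC.2+ arrays was Vim, with a mean of 11.48, beside 11.24 for OC.2- arrays. Between the fetal groups limma called 7 of these 8 markers lower on OC.2+ arrays and 0 higher (median difference -0.63), and their sum was lower there too. In such bulk samples fewer cells of a type and less RNA per cell cannot be told apart, and the part that this mixture has in the enzyme levels was not tested.

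The 6 enzymes followed 3 patterns. Hsd3b5, Dhrs7l1 and Hsd17b6 were high in adult hepatocytes and low in both fetal groups, and Hsd11b2 had the same order with a small difference. Hsd3b5 read below the lower quartile of the array on all 3 arrays of each fetal group. Dhrs7l1 did so on all 3 OC.2- arrays and on 2 of 3 OC.2+ arrays. For these genes a difference between the fetal groups might thus not show. Hsd11b1 stood at 3 levels, highest in adult hepatocytes, lower in OC.2- cells and lowest in OC.2+ cells. Hsd17b2 was highest in OC.2- cells and lowest in OC.2+ cells. Against adult hepatocytes, 4 of 6 enzymes were at least 2-fold lower in OC.2- cells, where 6.59% of all genes were. In OC.2+ cells 5 of 6 were, against 11.2% of all genes. Between the fetal groups, 2 of 6 were at least 2-fold lower in OC.2+ cells, against 6.63% of all genes. Arrays of OC.2- and adult cells did not overlap for 5 enzymes that were lower and 1 that was higher, as for 23.2% and 28.2% of all genes. Arrays of OC.2+ and adult cells did not overlap for 6 lower enzymes (25.0% of all genes), and those of the fetal groups for 2 lower enzymes (20.7%). The comparisons share samples, and since the list was drawn up on these contrasts nothing is read from those shares.

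**Figure D1:**
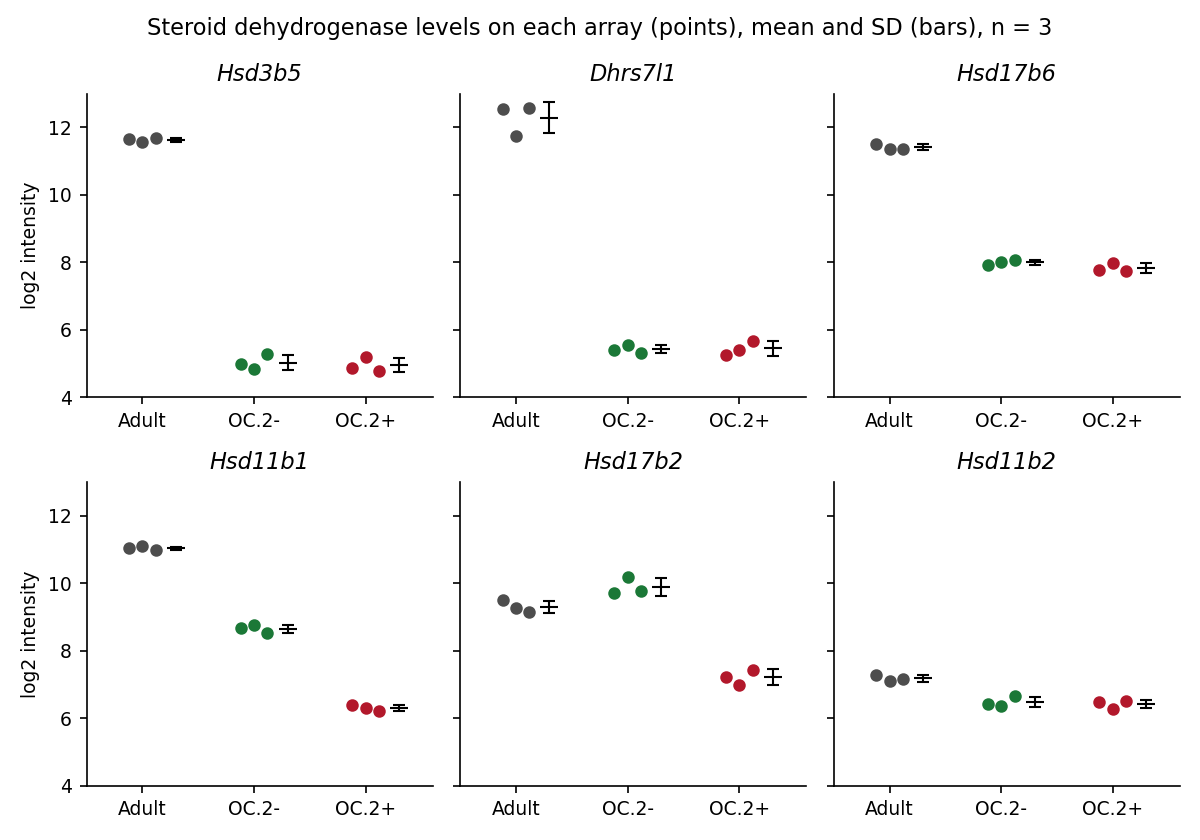
Log2 intensity of the 6 measured enzymes on each of the 9 arrays (points, by group) with the group mean and SD (bars, n = 3). The Hsd3b5 and Dhrs7l1 points of both fetal groups lie at 4.78 to 5.67, Hsd11b1 stands at 3 separate levels, and Hsd17b2 is highest in OC.2- cells.

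The pair of enzymes that interconvert corticosterone, the active rat glucocorticoid, and its inert keto form differed in how far the groups were apart. Hsd11b1 encodes the reductase that regenerates the active hormone in the endoplasmic reticulum of liver cells. Its log2 intensity was 11.03, 11.09 and 10.99 on the adult arrays, 8.67, 8.75 and 8.52 on the OC.2- arrays and 6.38, 6.30 and 6.21 on the OC.2+ arrays. No array of any group overlapped another group, and the replicates of a group lay within 0.24 of each other. The group means were 11.04 ± 0.05, 8.65 ± 0.12 and 6.30 ± 0.08 (SD, n = 3). Hsd11b1 was 5.25-fold lower in OC.2- than in adult cells (95% interval 4.63 to 5.96; log2 difference -2.39 ± 0.08, SE). OC.2+ cells were a further 5.09-fold below OC.2- cells (4.49 to 5.78), and 26.7-fold below adult hepatocytes (23.6 to 30.3). All 3 OC.2+ arrays read Hsd11b1 below their own array's median. In the comparison of the fetal groups the hepatocyte markers ranged from -3.15 to -0.32, with a median of -1.96. Hsd11b1, at -2.35, and Hsd17b2, at -2.68, lay within that range. Hsd17b6 (-0.17), Hsd3b5 (-0.08), Hsd11b2 (-0.07) and Dhrs7l1 (0.03) lay outside it, with Hsd3b5 and Dhrs7l1 dim in fetal cells. The part of hepatocyte content in these differences was not tested.

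Hsd11b2 encodes the oxidase that inactivates corticosterone, best known from the kidney and placenta. It read 7.28, 7.09 and 7.16 on the adult arrays, 6.43, 6.36 and 6.65 on the OC.2- arrays and 6.48, 6.27 and 6.50 on the OC.2+ arrays. All 6 fetal arrays lay below all 3 adult arrays, while the fetal groups overlapped. The means were 7.18 ± 0.09, 6.48 ± 0.15 and 6.42 ± 0.12 (SD, n = 3). Hsd11b2 was 1.62-fold lower in OC.2- cells (1.40 to 1.88) and 1.69-fold lower in OC.2+ cells (1.46 to 1.96). The fetal groups differed by -0.07 (-0.28 to 0.15).

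H6pd, the enzyme of the endoplasmic reticulum that supplies Hsd11b1 with NADPH, is not one of the 6 and was singled out after its values were seen. It read 9.27, 9.18 and 9.08 on the adult arrays, 9.15, 9.28 and 8.89 on the OC.2- arrays and 6.88, 7.07 and 6.76 on the OC.2+ arrays. Adult and OC.2- arrays overlapped, and all OC.2+ arrays lay lower. H6pd fell by 2.20 in OC.2+ against OC.2- cells (4.59-fold, limma adjusted p = 5.2e-09). It did not pass the test in OC.2- against adult cells, with a difference of -0.07 (adjusted p = 0.628), but with quantile normalization it read 0.37 higher there (adjusted p = 0.00846). Between the fetal groups Hsd11b1 was 5.09-fold and H6pd 4.59-fold lower, whereas between OC.2- and adult cells Hsd11b1 was 5.25-fold lower and H6pd 1.05-fold lower.

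The other genes of glucocorticoid supply and response, a list of 19 measured genes without Hsd11b1 and Hsd11b2, moved in both directions. In OC.2- against adult cells 6 rose and 10 fell (median -1.01, against 0.07 for all genes, of which 44.5% were called). That list median was -0.70 without adult replicate 1 and -1.16 without adult replicate 3. In OC.2+ against OC.2- cells 2 rose and 10 fell (median -0.44, all genes 0.04, 38.5% called). In OC.2+ against adult cells 4 rose and 14 fell (median -1.49, all genes 0.11, 55.4% called). Tat, tyrosine aminotransferase and a classic glucocorticoid target of liver, was 120-fold lower in OC.2- than in adult cells (log2 difference -6.90 ± 0.09, adjusted p = 6.6e-14), and Tdo2, tryptophan dioxygenase, was 92.5-fold lower (-6.53 ± 0.20, adjusted p = 4.35e-11). Both read below the lower quartile of the array on all 6 fetal arrays, so these folds may be understated. Metallothioneins, which bind metal and respond to glucocorticoid, rose: Mt1 by 2.32 (adjusted p = 9.19e-08) and Mt2A by 2.27 (adjusted p = 3.69e-06). Enzymes of amino acid breakdown thus stood at the low end of the list and metallothioneins at its high end in the same comparison.

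Serpina6, which encodes the corticosteroid-binding globulin of plasma, rose by 0.54 in OC.2- against adult cells (adjusted p = 0.00749) and fell by 2.53 in OC.2+ against OC.2- cells (adjusted p = 1.28e-08). Errfi1, an inhibitor of the epidermal growth factor receptor, and Igfbp1, a binding protein of insulin-like growth factors, had the largest falls of the list between the fetal groups, by 2.91 (adjusted p = 2.51e-10) and 2.90 (adjusted p = 2.32e-09). Fkbp5, a chaperone partner of the glucocorticoid receptor, rose by 0.56 in the same comparison (adjusted p = 0.000301). Nr3c1, the receptor itself and named after its values were seen, fell by 1.26 in OC.2- against adult cells (adjusted p = 3.6e-07) and differed by -0.22 between the fetal groups (adjusted p = 0.108).

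Hsd17b2 and Hsd17b6 encode oxidising enzymes of sex steroids, and they had different orders. Hsd17b2 oxidises estradiol and testosterone to their weaker 17-keto forms. It read 9.49, 9.28 and 9.13 on the adult arrays, 9.71, 10.19 and 9.77 on the OC.2- arrays and 7.24, 6.98 and 7.44 on the OC.2+ arrays. No groups overlapped, although the highest adult array, replicate 1, lay close to the lowest OC.2- array. The means were 9.30 ± 0.18, 9.89 ± 0.26 and 7.22 ± 0.23. Hsd17b2 was 1.51-fold higher in OC.2- than in adult cells (1.21 to 1.87), the one enzyme of the 6 that was higher in a fetal group. OC.2+ cells were 6.39-fold below OC.2- cells (5.13 to 7.95) and 4.25-fold below adult cells (3.41 to 5.28). Summed endothelial, macrophage, and stellate and mesenchymal markers were also highest in OC.2- cells, as given above. So was Apoa1, with means of 12.24, 12.93 and 10.35 in adult, OC.2- and OC.2+ cells. It was the 1 of 10 hepatocyte markers called higher in OC.2- than in adult cells, where 5 were called lower. The part of any of these cell types in the level of Hsd17b2 was not tested.

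Hsd17b6 encodes an oxidative 3-alpha- and 17-beta-hydroxysteroid dehydrogenase, related to retinol dehydrogenases, that can form dihydrotestosterone from androstanediol. It read 11.50, 11.37 and 11.35 on the adult arrays, 7.91, 8.01 and 8.06 on the OC.2- arrays and 7.76, 7.99 and 7.74 on the OC.2+ arrays. The adult arrays lay far above the fetal arrays, which overlapped between the groups. The means were 11.41 ± 0.08, 7.99 ± 0.08 and 7.83 ± 0.14 (SD, n = 3). Hsd17b6 was 10.7-fold lower in OC.2- than in adult cells (9.31 to 12.2) and 11.9-fold lower in OC.2+ cells (10.4 to 13.7), with -0.17 between the fetal groups (-0.36 to 0.03).

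Hsd17b6 was the only one of the 6 with more than 1 probe set, and its 3 probe sets had the same order of adult over fetal cells but different sizes. The other probe sets gave log2 differences of -4.00 and -4.68 in OC.2- against adult cells, where the one used gave -3.41, and -4.22 and -4.58 against -3.58 in OC.2+ cells. With the mean of the probe sets the differences were -4.03 and -4.12, over 1.5 times larger as folds in OC.2- cells. In the reference gene table the neighbours of Hsd17b6 on chromosome 7 are unnamed loci that were not measured, and whether near-identical copies share the probes was not tested.

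**Figure D2:**
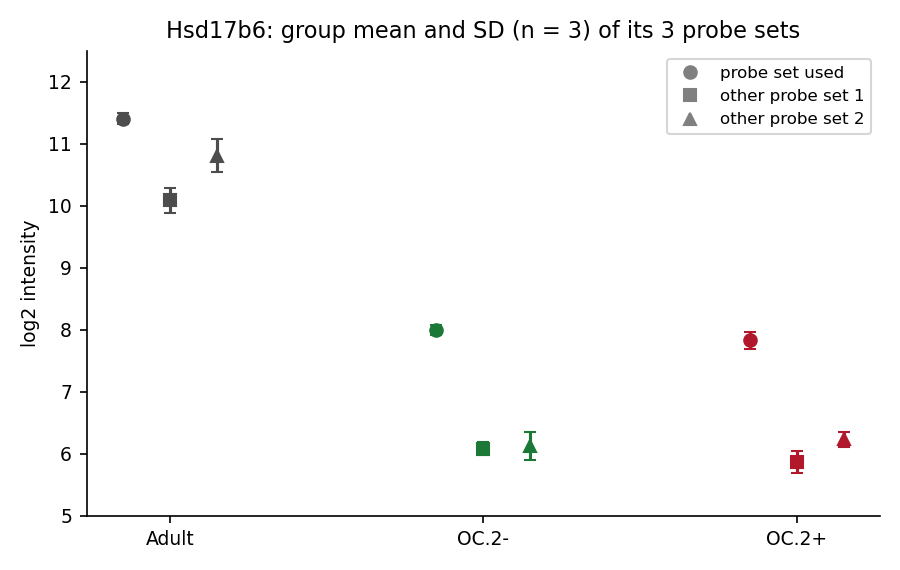
Group mean and SD (n = 3 arrays) of log2 intensity for the 3 Hsd17b6 probe sets, by group. The probe set used has fetal means of 7.99 and 7.83, and the other probe sets lie at 5.87 to 6.23 in the fetal groups, with all 3 higher in adult hepatocytes.

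The other 17-beta-hydroxysteroid dehydrogenase genes, 9 of 10 listed being measured, had 6 lower and 0 higher members in OC.2- against adult cells (median -0.42; 4 lower and 1 higher with quantile normalization) and again 6 lower and 0 higher in OC.2+ against OC.2- cells (median -1.24). In OC.2+ against adult cells 7 were lower and 1 was higher (median -1.50), and 7 and 0 under each of the 3 other scalings. The called shares were 66.7%, 66.7% and 88.9%, beside 44.5%, 38.5% and 55.4% of all genes, whose medians were 0.07, 0.04 and 0.11. The largest falls in OC.2+ against adult cells were those of Hsd17b11, a lipid droplet protein, by 3.62 (12.3-fold, adjusted p = 5.14e-12), and Hsd17b13, another lipid droplet protein, by 2.65 (6.28-fold, adjusted p = 4.1e-09). Hsd17b4, the multifunctional enzyme of peroxisomal fatty acid oxidation, fell in steps as Hsd11b1 was ordered, by 1.21 in OC.2- against adult cells (adjusted p = 1.7e-06) and by a further 1.25 in OC.2+ cells (adjusted p = 1.26e-06).

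Hsd17b10, a mitochondrial enzyme, and Hsd17b7, an enzyme of cholesterol synthesis, differed mainly between the fetal groups. Hsd17b10 fell by 1.69 in OC.2+ against OC.2- cells (adjusted p = 4.86e-08), and Hsd17b7 by 1.24 (adjusted p = 5.42e-06). In OC.2- against adult cells Hsd17b10 fell by 0.39 (adjusted p = 0.0113), a call that was lost, at 0.04, with quantile normalization (adjusted p = 0.792). The fall of Hsd17b13 in that comparison, by 0.42 (adjusted p = 0.0361), was also lost with quantile normalization, at -0.07 (adjusted p = 0.723), with cyclic loess, and without adult replicate 2, at -0.29 (adjusted p = 0.143). It was lost as well without OC.2- replicate 3, at -0.28 (adjusted p = 0.154).

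Of the remaining members of that family, Hsd17b12, an enzyme of fatty acid elongation, fell in both steps, by 0.95 (adjusted p = 4.16e-06) and by 0.55 (adjusted p = 0.000556), and was 2.83-fold lower in OC.2+ than in adult cells (adjusted p = 2.4e-08). Hsd17b8, of mitochondrial fatty acid synthesis, fell by 0.80 in OC.2- against adult cells (adjusted p = 5.29e-06) and differed by 0.18 between the fetal groups (adjusted p = 0.131). Hsd17b1, which forms estradiol, passed no test, with differences of 0.03 to 0.20. Hsd17b3, the testosterone-forming enzyme of testis, rose by 0.31 in OC.2+ against adult cells (adjusted p = 0.0307), a call lost under each of the 3 other scalings, where it was 0.21 to 0.23. The call was also lost when any one of the OC.2+ arrays was left out, and Hsd17b3 read below the lower quartile on every array.

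**Figure D3:**
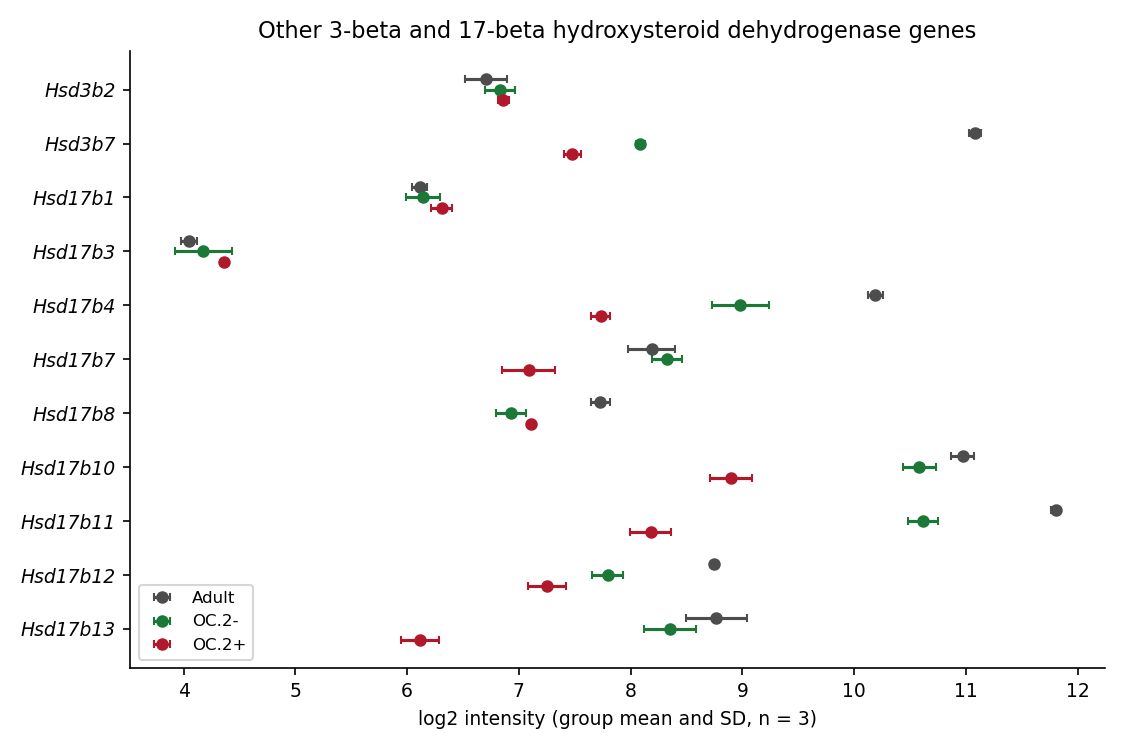
Group mean and SD (n = 3 arrays) of log2 intensity for the other measured 3-beta- and 17-beta-hydroxysteroid dehydrogenase genes. Hsd3b7 is far higher in adult hepatocytes, Hsd17b4 and Hsd17b11 step down from adult to OC.2- to OC.2+ cells, and Hsd17b7, Hsd17b10 and Hsd17b13 are set apart mostly by low OC.2+ values.

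Hsd3b5 encodes the male-predominant 3-ketosteroid reductase of rat liver, which belongs to the 3-beta-hydroxysteroid dehydrogenase family. It read 11.64, 11.55 and 11.67 on the adult arrays, 4.98, 4.83 and 5.27 on the OC.2- arrays and 4.87, 5.18 and 4.78 on the OC.2+ arrays. On the linear scale this was an intensity of 2997 to 3254 in adult cells and 27.5 to 38.4 on the 6 fetal arrays. The fetal arrays all read below the lower quartile of their own array, so the folds may be understated. The group means were 11.62 ± 0.06, 5.02 ± 0.22 and 4.94 ± 0.21 (SD, n = 3). Hsd3b5 was 96.8-fold lower in OC.2- than in adult cells (80.4 to 117) and 102-fold lower in OC.2+ cells (85.0 to 123). The fetal groups overlapped and differed by -0.08 (-0.35 to 0.19), and at such dim readings a difference between them might not show.

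Beside it stood 4 male-predominant cytochrome P450 genes of rat liver (Cyp2c11, Cyp2c13, Cyp3a2 and Cyp2a2). The log2 of their summed intensity was 14.09 to 14.3 on adult arrays and 6.91 to 7.29 on fetal arrays, and all 4 were lower in both fetal groups. Cyp2c12, the female-predominant counterpart, was also lower, 17.2-fold in OC.2- against adult cells (adjusted p = 1.2e-10), with all 6 fetal arrays below the lower quartile. The other female-predominant genes, A1bg and Prlr, passed no test, but both were dim. Prlr read below the lower quartile on every array, and A1bg read 5.85 to 6.03, below the median of every array. Their lack of a call thus does not show that they stayed level. The part of sex in the level of Hsd3b5 was not tested.

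Of the other 3-beta-hydroxysteroid dehydrogenase genes, only Hsd3b2 and Hsd3b7 had a row of their own among 6 listed. Hsd3b7, an enzyme of bile acid synthesis, read 11.02, 11.09 and 11.12 on the adult arrays and 8.04, 8.11 and 8.11 on the OC.2- arrays. It fell by 2.99 there (7.96-fold, adjusted p = 6.01e-12) and by a further 0.61 in OC.2+ cells (adjusted p = 1.94e-05). Hsd3b2, a neighbour of Hsd3b5 on chromosome 2, differed by 0.03 to 0.16 and passed no test. A probe set shared by Hsd3b3 and Hsd3b1, which lie next to Hsd3b2, had group means of 6.41, 6.43 and 6.46. Of the 3 probe sets measured in this gene cluster, that of Hsd3b5 alone read a difference of more than 0.16 between adult and fetal cells.

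The reductases that act on the double bond or the keto group of steroids, where Srd5a1 would belong, had 7 of 12 measured genes lower and 2 higher in OC.2- against adult cells (median -1.23). In OC.2+ against adult cells 9 were lower and 2 higher (median -2.29), and between the fetal groups 4 were lower and 1 higher (median -0.15). The called shares in that order were 75.0%, 91.7% and 41.7%, beside 44.5%, 55.4% and 38.5% of all genes (medians 0.07, 0.11 and 0.04), so that between the fetal groups the share was close to that of all genes. Akr1c2 and Akr1c12, aldo-keto reductases, were 41.4-fold (adjusted p = 3.15e-13) and 20.7-fold (adjusted p = 7.64e-12) lower in OC.2- than in adult cells, with no call between the fetal groups, although Akr1c2 passed there with quantile normalization (-0.27, adjusted p = 0.0254). Both read below the lower quartile on all 3 OC.2- arrays, so their folds may be understated. Akr1d1, the 5-beta-reductase of bile acid synthesis, stepped down by 2.24 (adjusted p = 9.36e-08) and again by 2.79 (adjusted p = 1.19e-08), the same order as Hsd11b1. Srd5a3, a polyprenol reductase that shares its family name with Srd5a1, went the opposite way. It rose by 0.91 in OC.2- against adult cells (adjusted p = 4.7e-07) and by a further 1.32 in OC.2+ cells (adjusted p = 1.41e-08), and says nothing of Srd5a1. Members of the Akr1c family are close copies, and probes shared between them cannot be told apart here.

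Dhrs7l1 is a short-chain dehydrogenase gene next to Dhrs7 on chromosome 6. Its substrate is not stated here. The 250 bases upstream of its start, from RefSeq on GRCr8 (chr6:97047900-97048149, minus strand), are shown because no promoter was at hand for the other measured enzymes. The capitals mark the one match to TGTTCT, a short element of the glucocorticoid receptor's binding site, which starts 65 bases before the start of the gene.
Dhrs7l1: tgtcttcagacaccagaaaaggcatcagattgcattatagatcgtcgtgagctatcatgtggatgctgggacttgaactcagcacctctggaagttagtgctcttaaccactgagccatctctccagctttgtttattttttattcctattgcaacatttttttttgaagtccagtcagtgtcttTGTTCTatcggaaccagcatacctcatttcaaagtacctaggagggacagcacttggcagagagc
Of 33469 rat promoters in the table, 17.5% hold this match on either strand, so it is common. There was no match to TATAAA (12.9% of promoters), to the HNF4A core CAAAGTCCA (0.338%), to TTGCNNAA, a C/EBP site (9.22%), to TTCNNNGAA, a STAT5 site (7.67%), or to TGTTTAC, a FOXA site (3.21%). Only these letters were searched, so variants of a site were not counted. A match describes the letters and not a bound site. Of the 6 measured enzymes, Dhrs7l1 alone had a promoter in that table.

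Dhrs7l1 read 12.53, 11.75 and 12.58 on the adult arrays, 5.39, 5.55 and 5.32 on the OC.2- arrays and 5.26, 5.41 and 5.67 on the OC.2+ arrays. Adult replicate 2 was the low one of its group, and the fetal groups overlapped. The means were 12.29 ± 0.46, 5.42 ± 0.12 and 5.45 ± 0.21 (SD, n = 3), with the widest adult SD of the 6 enzymes. Dhrs7l1 was 117-fold lower in OC.2- than in adult cells (88.5 to 155) and 115-fold lower in OC.2+ cells (86.8 to 152). The fetal groups differed by 0.03 (-0.37 to 0.43). The gene read below the lower quartile of the array on all 3 OC.2- arrays and on 2 of 3 OC.2+ arrays, so these folds too may be understated. A difference between the fetal groups might not show at such readings.

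**Figure D4:**
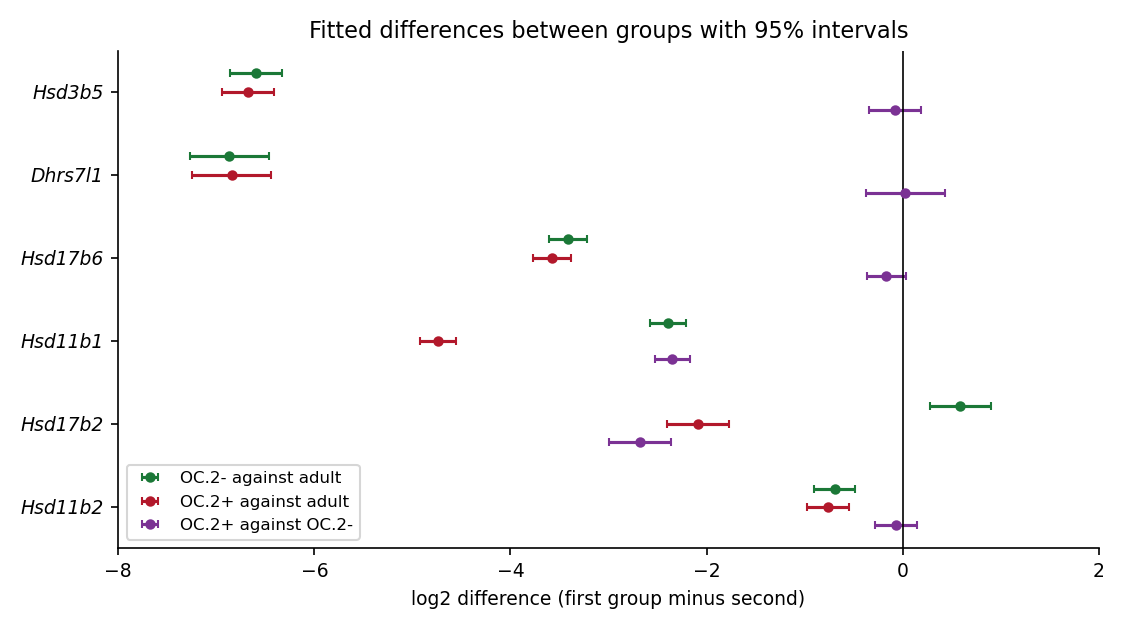
Fitted log2 differences of the 6 enzymes in the 3 comparisons, with 95% intervals (n = 3 arrays a group). Hsd3b5 and Dhrs7l1 lie near -6.6 to -6.9 against adult cells, the fetal groups differ clearly for Hsd11b1 and Hsd17b2, and for the other 4 enzymes the interval between the fetal groups includes 0.

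Other genes of the Dhrs, Rdh and Hsdl families and related short-chain dehydrogenases, 23 measured, had 11 lower and 3 higher members in OC.2- against adult cells (median -0.14; 12 lower and 6 higher with quantile normalization). They had 12 lower and 2 higher in OC.2+ against OC.2- cells (median -0.38) and 14 lower and 2 higher in OC.2+ against adult cells (median -0.72). The called shares were 60.9%, 60.9% and 69.6%, beside 44.5%, 38.5% and 55.4% of all genes (medians 0.07, 0.04 and 0.11). Rdh16 and Rdh7, retinol dehydrogenases related to Hsd17b6, were 38.0-fold (adjusted p = 4.41e-11) and 14.7-fold (adjusted p = 9.89e-11) lower in OC.2- than in adult cells. Rdh16 read 10.40 to 10.83 in adult cells and 5.14 to 5.73 on the 6 fetal arrays, below the lower quartile on 2 of 3 arrays of each fetal group, which overlapped between the groups, the order of Hsd3b5, Dhrs7l1 and Hsd17b6. Pecr and Bdh1, a peroxisomal enoyl reductase and a ketone body enzyme, fell in both steps, and in OC.2+ against OC.2- cells by 1.96 (adjusted p = 2.21e-08) and 1.88 (adjusted p = 6.6e-09). Dhrs11 rose by 0.36 in OC.2- against adult cells (adjusted p = 0.00232) and by 1.71 in OC.2+ against OC.2- cells (adjusted p = 2.32e-09), so not every short-chain dehydrogenase was lower in fetal cells.

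Genes of steroid conjugation were mostly lower in fetal cells. Of 8 measured sulfotransferase, glucuronosyltransferase and sulfatase genes, 7 fell and 0 rose in OC.2- against adult cells (median -1.66), and 7 fell and 0 rose in OC.2+ against adult cells (median -2.75). Of all genes 20.9% and 23.4% fell in these comparisons, with medians of 0.07 and 0.11. Ugt2b37 was 45.0-fold lower in OC.2- than in adult cells (adjusted p = 1.02e-10), and Sult2a1, which sulfates hydroxysteroids, 12.4-fold lower (adjusted p = 1.2e-10). The fold of Ugt2b37, which read below the lower quartile on all 6 fetal arrays, may be understated. Between the fetal groups 3 fell (37.5%, beside 38.5% of all genes called), with Ugt2b35 lower by 3.03 on the log2 scale (adjusted p = 2.98e-09) and Ugt2b1 by 1.30 (adjusted p = 3.53e-08). These families also hold close copies.

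Sex steroid receptors, the plasma carrier and the genes of steroid synthesis had the lowest called shares of the 7 lists. Of 10 measured, 1 rose and 1 fell in OC.2- against adult cells (median 0.10), and 0 rose and 1 fell between the fetal groups (median 0.03). These counts of 2 and 1 called genes stand beside 44.5% and 38.5% of all genes called. Much of the list was dim: Cyp11b1, Cyp11b2, Cyp21a1 and Pgr read below the lower quartile on every array. Only 2 of the 10 passed the filter on dim genes, with 1 called, lower, in each of these comparisons. The low shares thus do not show that the dim genes stayed level. Esr1, the estrogen receptor of liver, fell by 2.36 in OC.2- against adult cells (5.15-fold, adjusted p = 5.38e-10) and differed by 0.13 between the fetal groups (adjusted p = 0.359). Cyp17a1, which makes androgen precursors, fell by 1.75 in OC.2+ against OC.2- cells (adjusted p = 5.87e-08) and differed by -0.12 between OC.2- and adult cells (adjusted p = 0.429). Shbg, the sex hormone carrier, rose by 0.32 in OC.2- against adult cells (adjusted p = 0.0182), a call lost under each of the 3 other scalings, which leaves 0 higher and 1 lower. In OC.2+ against adult cells 1 rose and 2 fell (30.0%, all genes 55.4%), or 0 and 2 under each of those scalings.

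**Figure D5:**
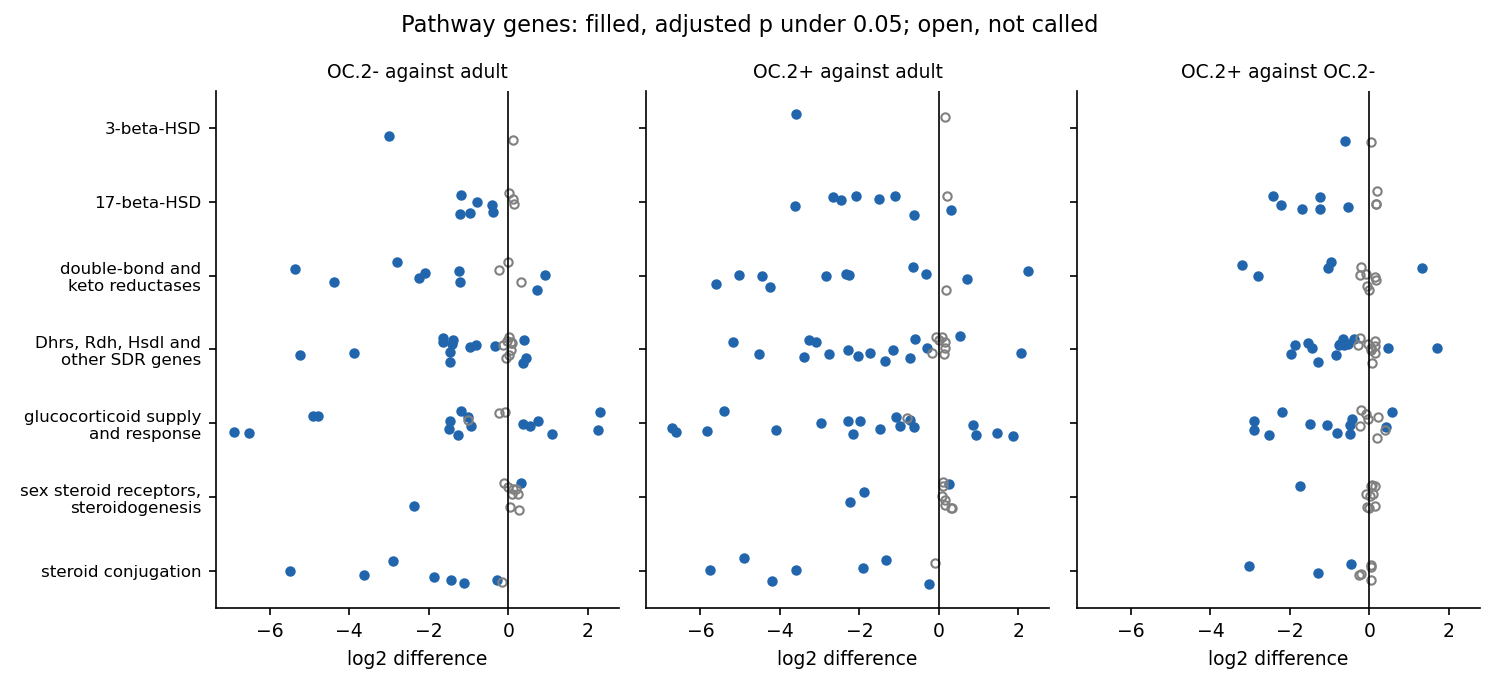
Log2 difference of every measured gene of 7 pathway lists (rows) in the 3 comparisons (panels); filled points passed an adjusted p of 0.05 in limma over all genes, open points did not. Conjugation genes lie at or below 0 against adult cells, while the glucocorticoid list spreads from -6.90 to 2.32 in OC.2- against adult cells.

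Over all 7 lists, 83 measured genes included 12 that rose and 43 that fell in OC.2- against adult cells, 5 and 37 in OC.2+ against OC.2- cells, and 10 and 54 in OC.2+ against adult cells. Among all genes the called ones were split 23.7% higher and 20.9% lower, 20.3% and 18.2%, and 32.0% and 23.4% in the same order. That split of all genes moved with the scaling: of the called genes 53.1% were higher in OC.2- against adult cells, or 38.1% with median centring. In OC.2- against adult cells 35 of the 83 were at least 2-fold lower and 10 at least 8-fold lower, where 0.869% of all genes were at least 8-fold lower.

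The genes with the most similar profile to each enzyme were found by the root mean square difference between log2 profiles over the 9 arrays, after each gene's mean was subtracted. For Hsd3b5 they were Cyp3a2 (0.178), Serpina3c (0.193) and Mettl7b (0.212). For Dhrs7l1 they were Tat (0.203), Tdo2 (0.266) and Mug1l1 (0.313), and for Hsd17b6 RT1-S3 (0.134), Efna5 (0.140) and Abhd2 (0.162). All of these had the order of a high adult group over 2 low fetal groups. Hsd11b1 was nearest to Ndrg2 (0.129), the complement protease gene C1r (0.135) and Lcat (0.166), which acylates plasma cholesterol. Hsd17b2 was nearest to Maged1 (0.134), Kng2l1 (0.136) and Serpina6 (0.168), the binding globulin described above. Hsd11b2, with its small differences, was nearest to Psenen (0.0928), Prss8 (0.102) and Abhd17a (0.102). The distances are small against differences of up to 6.87 for Dhrs7l1 and not against those of Hsd11b2, whose largest was 0.76.

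Genes beside Hsd11b1, Hsd17b2 and Hsd11b2 were measured too. In the reference gene order on chromosome 13, G0s2 lies next to Hsd11b1. It fell by 0.41 in OC.2- against adult cells (adjusted p = 0.00896) and differed by 0.00 between the fetal groups. Traf3ip3, on the other side of Hsd11b1, rose by 0.34 in both of these comparisons. It was dim, below the lower quartile on all 3 adult, all 3 OC.2- and 2 of 3 OC.2+ arrays. Sdr42e1, a short-chain dehydrogenase gene next to Hsd17b2 on chromosome 19, fell by 1.80 in OC.2- against adult cells (adjusted p = 8.87e-08), where Hsd17b2 was higher. Zdhhc1, next to Hsd11b2 on the same chromosome, fell by 0.73 in OC.2- (adjusted p = 1.05e-05) and by 0.78 in OC.2+ against adult cells (adjusted p = 3.27e-06), close to the -0.69 and -0.76 of Hsd11b2. Its fetal groups differed by -0.05, beside -0.07 for Hsd11b2. The other 4 measured neighbours of Hsd11b2 had other profiles. Atp6v0d1, on its other side, fell by 0.36 in OC.2- against adult cells (adjusted p = 0.00558) and by a further 0.38 in OC.2+ cells (adjusted p = 0.00408). Tppp3 rose by 0.50 in OC.2- against adult cells (adjusted p = 0.00193), and Agrp and Lrrc36 passed no test. Tppp3 was dim too, below the lower quartile on 2 of 3 adult and all 3 OC.2+ arrays. These neighbours were named after their values were seen.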

How the data were processed

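RNA extracted with the mirVana kit from 9 rat liver cell preparations (150 ng each) was measured on 1 array each. The deposited value table holds intensities on a linear scale that the authors had processed. The submitters' processing notes name Partek 6.6 and RMA without a role, with a build not given in the sources used here. RMA can level a shift shared by most genes and compress the differences of dim genes. Median intensity was 79.5 to 81.0 on adult and 86.5 to 89.7 on fetal arrays.

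The intensities were log2 transformed. Of 28826 probe sets, the probe annotation gave 1 symbol to 15209, several to 306 and none to 13311. The probe set with the highest mean stood for a gene, with no filter. Groups were compared over all 9 arrays in limma 3.58.1 (R 4.3.3, lmFit and eBayes), 2-sided, with Benjamini-Hochberg adjustment over 14497 genes and a threshold of 0.05, and the fit was tested on simulated data. Precision is limited by the 3 arrays per group. An identical value on 2 or more arrays was held by 41.3% of genes and by 0 of the 6 enzymes.

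The enzymes, the pathway lists and the cell type markers were chosen with earlier results of these data known. Named were the enzymes, every measured gene of the 3-beta- and 17-beta-hydroxysteroid dehydrogenase lists, up to 2 called genes each way from each other list and comparison, of which the text gives examples picked with their values known, the 3 nearest profiles of each enzyme, and markers. Alternatives were 3 other scalings, averaging of a gene's probe sets, a filter on dim genes, fits of only the groups compared, a trended and robust variance, the replicate number as a block, and leaving out each array. The sequence is from RefSeq, and gene order is from a table of GRCr8.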

Additional observations from a re-analysis of the deposited data

How the results depend on the processing

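No enzyme difference against adult cells changed direction under any alternative run, nor did those of Hsd11b1 and Hsd17b2 between the fetal groups. Over all alternatives and probe sets, Hsd3b5 was -6.72 to -6.29, Dhrs7l1 -7.14 to -6.65, Hsd17b6 -4.68 to -3.00, Hsd11b1 -2.49 to -1.90, Hsd11b2 -0.80 to -0.64 and Hsd17b2 0.44 to 1.02 in OC.2- against adult cells. Quantile normalization gave the smallest difference for Hsd11b1 and the largest for Hsd17b2. Median centring moved the median of all genes in that comparison from 0.07 to -0.04. All 6 enzymes passed the filter on dim genes (8371 genes), Hsd3b5, Dhrs7l1 and Hsd11b2 through the adult group alone. Without each array in turn, 5041 to 5595 genes were called in OC.2+ against OC.2- cells (5576 with all), 5729 to 6217 in OC.2- (6458) and 7206 to 8263 in OC.2+ (8034) against adult cells, and the counts of enzymes at least 2-fold lower were 2, 4 and 5 throughout. Deviations of same-numbered arrays from their group means correlated at -0.226 to 0.106, so no pairing by replicate number was seen. With 3 arrays per group this cannot decide whether same-numbered samples share a source. With the replicate number as a block 5416, 6199 and 7777 genes were called, and 42, 54 and 62 pathway genes in place of 42, 55 and 64. Readings below the lower quartile limit the folds of Hsd3b5, Dhrs7l1 and the other genes named with such readings.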
